A study of Mus musculus with 6 samples.

Results

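The genes described here encode P-TEFb, its inhibitory RNA particle and the super elongation complex. They were the 10 rows of the deposited table whose symbol was Cdk9, Ccnt1, Ccnt2, Hexim1, Larp7, Mepce, Ell, Ell2, Aff1 or Aff4, out of 13185 rows in all. Each of the 10 had 1 row and passed the filter on low values, as did 12554 rows of the table. The cells were a mouse model of T-ALL, an acute leukaemia of T cell precursors, driven here by Notch1, and were kept on plate-bound antibody to CD3 (clone 145-2C11, 2.5 ug/mL) with IL-2 at 100 U/mL in both groups. In one group 3 libraries came from cells given 25 nM panobinostat, an inhibitor of histone deacetylases, for 2 h, and in the other 3 libraries came from cells left untreated. The labels do not give the mouse strain, the form of Notch1 or whether the libraries within each group stemmed from different cultures, so p-values measure only the spread between these libraries, which may be technical. Libraries were sequenced from the polyadenylated 3′ ends of transcripts, so that isoforms of a gene with a shared 3′ end were not separated.

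RNA polymerase II pauses soon after it starts a gene, and P-TEFb, a kinase made of CDK9 and cyclin T1 or T2, releases it by phosphorylating the polymerase and its pausing factors. Much of the P-TEFb in a cell is held inactive in a particle built on 7SK RNA, where HEXIM1 inhibits the kinase, LARP7 binds the RNA and MEPCE caps it. Active P-TEFb also joins the super elongation complex (SEC), in which AFF1 or AFF4 is the scaffold and ELL or ELL2 speeds the polymerase. AFF1, AFF4 and ELL are known as fusion partners of KMT2A (MLL) in acute leukaemia.

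Values are as deposited. They were taken to be log2 CPM (CPM is the count of a gene scaled to the total of its library), then brought to a common distribution between libraries (quantile normalization). Both were inferred from the values. Spacing of the lowest values put 1 CPM at 6.01 to 7.74 reads, or about 6010000 to 7740000 reads in a library. By this estimate the 10 genes had between 33 reads (Ell, untreated library 2) and 1667 reads (Cdk9, panobinostat library 3). Read numbers of genes above the lowest values are approximate, since quantile normalization moves genes of different levels by different amounts. All 8 T cell markers looked for had rows, and their summed level was 1250 to 1280 CPM in treated and 1580 to 1700 CPM in untreated libraries (1 marker rose and 4 fell). For comparison with these and the next counts, 19.2% of all 12554 tested genes rose and 19.0% fell (limma adjusted p below 0.05). Markers of other cell types were present too and their sums were mostly lower in treated libraries. The 8 myeloid markers summed to 1060 to 1150 CPM in treated against 1300 to 1470 CPM in untreated libraries (0 rose, 4 fell). The 7 erythroid markers summed to 6310 to 6710 against 6710 to 7960 CPM (1 rose, 4 fell), and 5 of 6 B cell markers to 60.6 to 69.7 against 74.8 to 79.5 CPM (0 rose, 2 fell). Of 3 NK cell markers 0 had a row, and of 5 stromal and endothelial markers only Pecam1 had one (59.4 to 79.2 against 88.5 to 123 CPM, fell). The part of these other cells in the results below was not tested, and fewer cells of a type and less RNA per cell cannot be told apart in bulk samples.

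The comparison asked how 2 h of panobinostat changed the RNA of this machinery. The SEC factor gene Ell, the kinase gene Cdk9, the cyclin gene Ccnt2 and the scaffold gene Aff1 rose, and the 7SK particle genes Larp7 and Mepce fell. Hexim1, Ccnt1, Ell2 and Aff4 did not pass. That is 6 of 10 called, against 38.3% of all 12554 tested genes (limma, Benjamini-Hochberg adjusted p below 0.05). The 4 rises (40.0%) stood beside 19.2% of all tested genes that rose, and the 2 falls (20.0%) beside 19.0% that fell. The median log2 fold change of the 10 was 0.03, against -0.0052 over all tested genes. Treated values were all above or all below untreated values in 8 of the 10 genes, and in 51.4% of all tested genes. Past a 2-fold change stood Ell among the rises (5.12% of all genes) and Larp7 and Mepce among the falls (5.15% of all genes). The 4 rises became 2, those of Ell and Cdk9, without panobinostat library 1 or 3 or without untreated library 2 or 3, and without the mean-variance trend in the model, while the 2 falls were called in each of these fits.

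**Figure D1:**
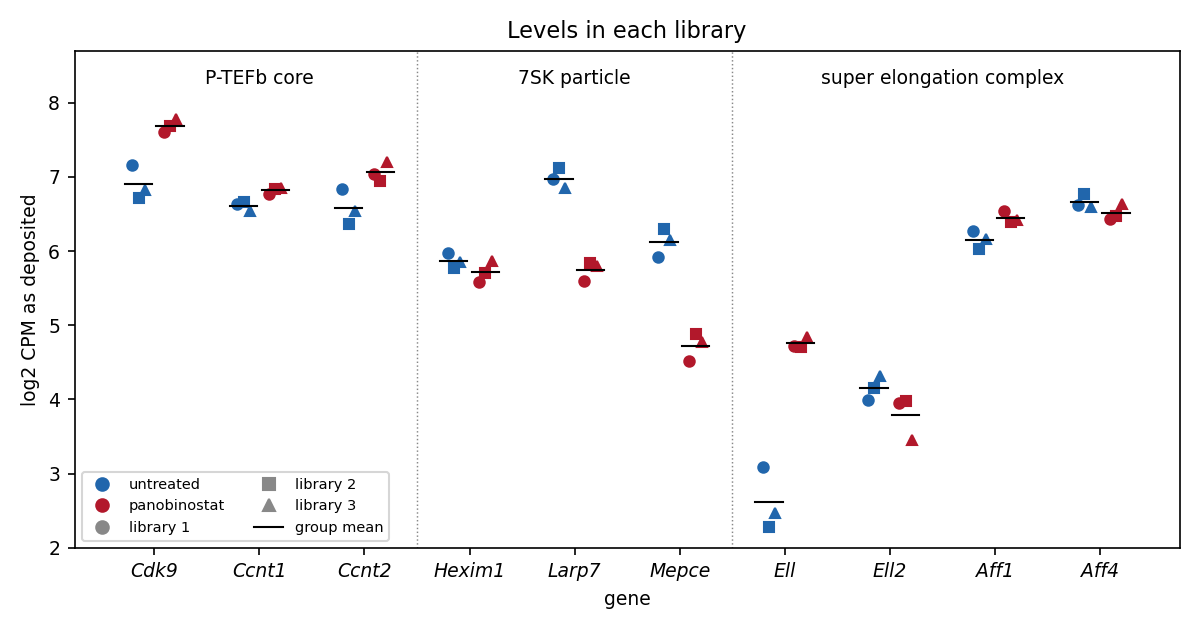
Log2 CPM as deposited (vertical axis) of the 10 genes (horizontal axis) in each untreated (blue) and panobinostat (red) library, with symbols for library numbers and lines for group means (n = 3). Treated and untreated points are apart in 8 genes and mixed in Hexim1 and Aff4, and untreated library 1 is the blue point nearest the red ones in Cdk9, Ccnt2 and Ell.

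Of the P-TEFb core, Cdk9 (chromosome 2, 32705784 to 32713076, minus strand, mm10), which encodes the kinase subunit, was at 7.60, 7.68 and 7.78 log2 CPM in panobinostat libraries 1 to 3 and at 7.16, 6.72 and 6.82 in untreated libraries 1 to 3. All treated libraries lay above all untreated ones, with untreated library 1 the closest. Cdk9 rose 1.73-fold (limma log2 fold change 0.79 with an SE of 0.12, adjusted p = 0.00251), and 89.6% of tested genes had a lower log2 fold change. The call held in all 15 alternative fits, with log2 fold changes from 0.70 to 0.92. The gene Fpgs, which encodes a folate-retaining synthetase and lies 1638 bases beyond Cdk9 on the same strand, was at 5.11, 4.76 and 5.07 log2 CPM in treated and 4.53, 3.89 and 4.11 in untreated libraries. Fpgs rose about as much as Cdk9 (0.80, SE 0.18, limma adjusted p = 0.0117), and its call held in all 15 alternatives (0.66 to 0.98). CDK9 protein occurs in a long and a short form, which 3′ reads do not separate.

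Ccnt2 (chromosome 1, 127774164 to 127808061, plus strand), 1 of the 2 genes for cyclin T subunits, was at 7.04, 6.95 and 7.20 log2 CPM in treated and 6.84, 6.36 and 6.54 in untreated libraries. The groups were separate by a narrow gap, between panobinostat library 2 and untreated library 1. Its log2 fold change was 0.48 (SE 0.13, limma adjusted p = 0.0231). That call was lost without panobinostat library 1 (0.49, adjusted p = 0.0578) or 3 (0.41, 0.0832), without untreated library 2 (0.37, 0.0571) or 3 (0.46, 0.0733) and with no mean-variance trend (adjusted p = 0.0558), against adjusted p-values from 0.00349 to 0.0832 over all alternatives.

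Ccnt1 (chromosome 15, 98538689 to 98570923, minus strand), the other cyclin T gene, was at 6.77, 6.84 and 6.84 log2 CPM in treated and 6.63, 6.66 and 6.54 in untreated libraries. Every treated value was above every untreated one, but by little. Its log2 fold change of 0.21 (95% interval 0.038 to 0.38, limma adjusted p = 0.0575) did not pass, and it passed when libraries were weighted by quality (0.25, adjusted p = 0.0139; 0.0139 to 0.173 over all alternatives). The antisense transcript 9330020H09Rik, at 0.02 to 1.49 log2 CPM, overlaps the gene at 98567324 to 98569583. This is near the start of Ccnt1, while the libraries read 3′ ends and the annotated end of Ccnt1 is at 98538689. Any reads of Ccnt1 and of the antisense transcript within the overlap cannot be told apart without a stated strand setting.

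The 7SK particle genes split between the inhibitor and its protein partners. Hexim1 (chromosome 11, 103116231 to 103119725, plus strand), named for its induction by hexamethylene bisacetamide in other cells, was at 5.58, 5.71 and 5.87 log2 CPM in treated and 5.97, 5.77 and 5.85 in untreated libraries. The groups overlapped, with panobinostat library 3 above untreated libraries 2 and 3. The log2 fold change was -0.15 (95% interval -0.39 to 0.099, limma adjusted p = 0.307), and it did not pass in any of the 15 alternatives (-0.22 to -0.075). Acbd4, which ends 4030 bases before Hexim1 on the same strand, was at 4.0, 4.25 and 4.17 log2 CPM in treated and 3.09, 3.35 and 3.18 in untreated libraries and rose (0.94, SE 0.14, limma adjusted p = 0.0023; 0.87 to 1.01 over the alternatives, called in each).

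Larp7 (chromosome 3, 127536714 to 127553349, minus strand), whose protein binds and stabilises 7SK RNA, was at 5.59, 5.84 and 5.80 log2 CPM in treated and 6.97, 7.12 and 6.85 in untreated libraries. The groups lay well apart, at about 290 to 424 reads in treated and 759 to 969 reads in untreated libraries. Larp7 was 2.35-fold lower in treated cells (limma log2 fold change -1.23 with an SE of 0.11, adjusted p = 0.000341), and 3.52% of tested genes had a lower log2 fold change. Its change ran from -1.30 to -1.15 over the alternatives, and the call held in each.

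Mepce (chromosome 5, 137781906 to 137787655, minus strand), which encodes the methyltransferase that caps 7SK RNA, was at 4.51, 4.89 and 4.78 log2 CPM in treated and 5.92, 6.29 and 6.15 in untreated libraries. Again no treated library came near an untreated one. Mepce was 2.63-fold lower in treated cells (limma log2 fold change -1.40 with an SE of 0.14, adjusted p = 0.00053), with 2.55% of tested genes lower still and a range of -1.50 to -1.29 over the alternatives.

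Larp7 and Mepce each start next to a gene that runs the opposite way, and neither neighbour passed. Zgrf1, which begins 139 bases from Larp7, was at 5.23, 5.07 and 5.19 log2 CPM in treated and 5.14, 4.96 and 4.91 in untreated libraries (limma log2 fold change 0.16 with an SE of 0.11, adjusted p = 0.255). Zcwpw1, which begins 142 bases from Mepce, was at 2.86, 3.12 and 2.83 in treated and 3.30, 3.23 and 3.66 in untreated libraries (-0.46, SE 0.18, limma adjusted p = 0.0749), and it passed when libraries were weighted by quality (-0.60, adjusted p = 0.0175; 0.0175 to 0.224 over the alternatives). The differences between each gene and its neighbour were not tested.

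**Figure D2:**
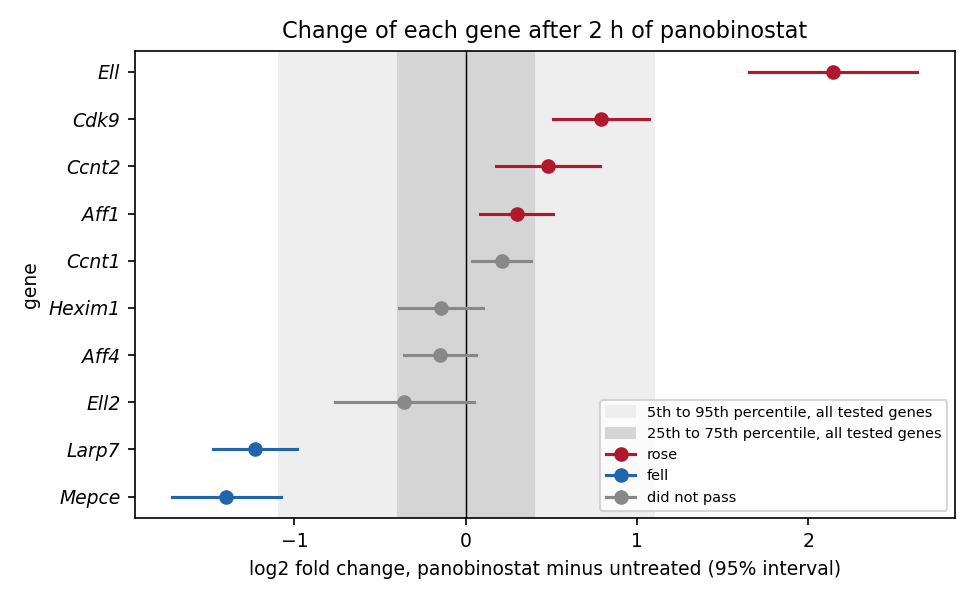
Log2 fold change of each gene, panobinostat minus untreated (horizontal axis), with its 95% interval from limma, for the 10 genes ordered by size (vertical axis); grey bands give the 25th to 75th (-0.39 to 0.40) and 5th to 95th (-1.09 to 1.10) percentiles of all 12554 tested genes. Ell lies above the outer band and Larp7 and Mepce below it, while Hexim1, Aff4, Ccnt1, Aff1 and Ell2 lie within the inner band.

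In the SEC, Ell (chromosome 8, 70539457 to 70592858, plus strand), which encodes an elongation factor that raises the rate of RNA polymerase II, was at 4.72, 4.71 and 4.84 log2 CPM in treated and 3.09, 2.28 and 2.47 in untreated libraries. The treated libraries were close to each other, and untreated library 1 was higher than the other untreated libraries. In estimated reads this was 158, 177 and 218 in treated against 66, 33 and 37 in untreated libraries. Ell rose 4.42-fold (limma log2 fold change 2.15 with an SE of 0.21, adjusted p = 0.000555), the 63rd highest log2 fold change of the 12554 tested genes. Without untreated library 1 the change was 2.38, and the call held in every alternative (1.97 to 2.38). Its neighbours on the same strand were lower in treated libraries. Isyna1, 1514 bases beyond the end of Ell, was at -0.73 (SE 0.23, limma adjusted p = 0.0381) and Fkbp8, 4128 bases before its start, at -0.30 (SE 0.10, limma adjusted p = 0.0489). Both calls were lost without panobinostat library 1 (-0.78 and -0.25), 2 (-0.82 and -0.34) or 3 (-0.60 and -0.30) and without untreated library 2 (-0.51 and -0.29) or 3 (-0.72 and -0.27), with adjusted p-values from 0.0053 to 0.119 for Isyna1 and 0.0167 to 0.145 for Fkbp8 over the alternatives.

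Ell2 (chromosome 13, 75706757 to 75772364, plus strand), the paralog of Ell, was at 3.95, 3.98 and 3.46 log2 CPM in treated and 3.99, 4.16 and 4.31 in untreated libraries. The groups touched without overlap, and panobinostat library 3 was the lowest. The log2 fold change of -0.36 (95% interval -0.77 to 0.049, limma adjusted p = 0.145) did not pass. It passed only when libraries were weighted by quality (-0.47, adjusted p = 0.0444, in a range of 0.0444 to 0.40 over the alternatives), and without panobinostat library 3 the log2 fold change was -0.19.

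The scaffold genes Aff1 and Aff4 changed little. Aff1 (chromosome 5, 103692374 to 103855322, plus strand) was at 6.53, 6.40 and 6.41 log2 CPM in treated and 6.27, 6.03 and 6.16 in untreated libraries, without overlap. Its log2 fold change was 0.30 (SE 0.092, limma adjusted p = 0.0364), a 1.23-fold rise. This call was lost without any single panobinostat library (0.25, 0.32 and 0.31 without libraries 1, 2 and 3), without untreated library 2 (0.23) or 3 (0.30) and with no mean-variance trend, with adjusted p-values from 0.0132 to 0.119 over all alternatives. Aff4 (chromosome 11, 53350833 to 53421830, plus strand), the other scaffold gene, was at 6.43, 6.47 and 6.64 log2 CPM in treated and 6.62, 6.76 and 6.59 in untreated libraries. The groups overlapped, and the log2 fold change of -0.15 (95% interval -0.36 to 0.062, limma adjusted p = 0.231) did not pass in any alternative.

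Paired genes were then compared within each library. A single scaling factor per library cancels in such a difference, but quantile normalization, which moves genes of different levels by different amounts, does not. The difference Ell minus Ell2 was 0.77, 0.73 and 1.39 on the log2 scale in treated libraries and -0.91, -1.88 and -1.84 in untreated ones. It thus moved by 2.50 towards Ell, with no overlap between groups, and by 2.29 to 2.82 when 1 library was left out. Aff1 minus Aff4 was 0.11, -0.077 and -0.22 in treated and -0.36, -0.74 and -0.43 in untreated libraries, a shift of 0.45 towards Aff1. Hexim1 minus Cdk9 was -2.02, -1.98 and -1.91 in treated and -1.19, -0.95 and -0.97 in untreated libraries, a shift of 0.93 towards Cdk9. Most of this shift was the rise of Cdk9 (0.79), as Hexim1 was at -0.15 and did not pass. The differences of these 3 pairs each reached the smallest p that 3 against 3 libraries allow (two-sided exact permutation test, p = 0.1, adjusted p = 0.133 over 4 pairs), which cannot pass 0.05. Ccnt1 minus Ccnt2 overlapped between groups (-0.27, -0.11 and -0.35 in treated, -0.21, 0.29 and -0.0042 in untreated libraries; shift -0.27, exact permutation p = 0.2).

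**Figure D3:**
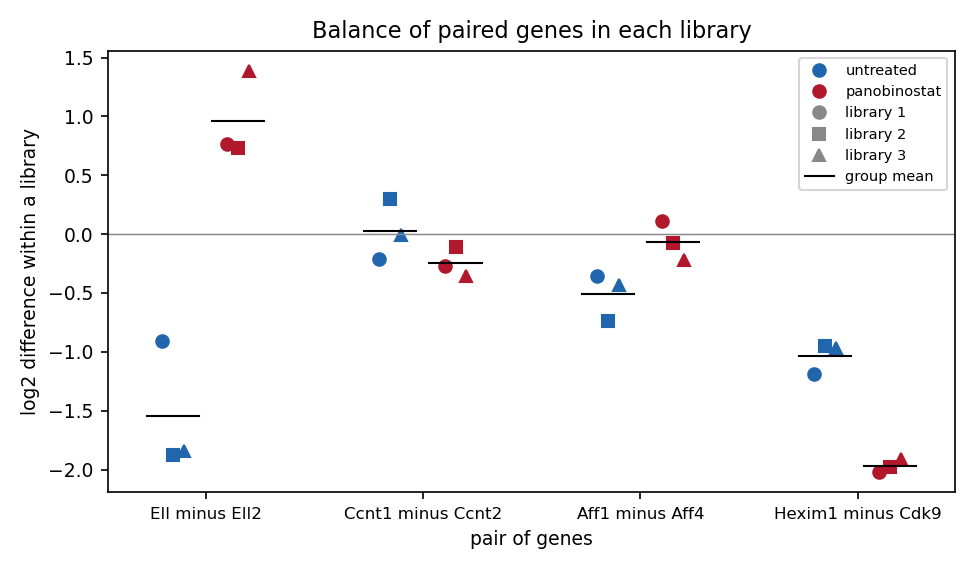
Log2 difference between 2 genes within a library (vertical axis) for 4 pairs (horizontal axis), in untreated (blue) and panobinostat (red) libraries, with lines for group means (n = 3). The groups are apart for Ell minus Ell2, Aff1 minus Aff4 and Hexim1 minus Cdk9, and Ell minus Ell2 is above 0 in the treated and below 0 in the untreated libraries.

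Untreated library 1 was the untreated library nearest to the treated mean in 5 of the 6 called genes, and in 56.3% of all 4806 called genes, against 21.6% and 22.1% for untreated libraries 2 and 3. On the first principal component of all tested genes it stood at -25.7, where the other untreated libraries stood at -48 and -41 and the treated ones at 35.4 to 43.2. Without it Cdk9 (0.92), Ccnt2 (0.61), Ell (2.38) and Aff1 (0.36) had larger log2 fold changes, as did Mepce (-1.50), and Larp7 was at -1.24.

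Promoter windows from RefSeq (build GRCm38.p6, 250 bases before to 50 after an annotated start) were matched by symbol for 9 genes, with 2 windows for Aff1. Mepce had none. The windows were rich in G and C, from 61.0% (Hexim1) to 79.0% (Aff4), where the median of all 32851 windows was 52.7%, and they held between 21 and 44 CpG pairs against a median of 7. Stretches before every annotated start of the gene itself are shown for the cyclin gene Ccnt2, which rose, and the 7SK particle gene Larp7, which fell. The call of Ccnt2 was lost in 5 of 15 alternatives. That of Cdk9 held in all 15, but its window has 0 bases before every annotated start and is not shown. The inhibitor gene that did not pass is shown too, so that the promoters can be compared. The Larp7 stretch runs into Zgrf1, which starts at 127553489 on the opposite strand. The Ccnt2 stretch runs into the antisense transcript 2900009J06Rik, which starts at 127774092. Which gene a marked match serves was not tested. Each is written 5′ to 3′ on the gene's strand, and capitals mark matches, on either strand, to the CCAAT box (spelled as named), the GC box GGGCGG, the TATA box with the letters TATAAA, the core TGACGT of the cAMP response element, the E-box read here as CACGTG, or the ETS site CGGAAG. These motifs were chosen after the windows were read.
Ccnt2, chr1:127773914-127774163, plus strand: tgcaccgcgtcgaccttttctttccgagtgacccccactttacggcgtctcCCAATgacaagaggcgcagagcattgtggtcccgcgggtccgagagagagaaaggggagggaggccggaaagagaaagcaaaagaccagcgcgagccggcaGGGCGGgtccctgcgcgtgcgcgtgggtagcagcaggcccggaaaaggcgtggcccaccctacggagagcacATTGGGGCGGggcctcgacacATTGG
Larp7, chr3:127553350-127553599, minus strand: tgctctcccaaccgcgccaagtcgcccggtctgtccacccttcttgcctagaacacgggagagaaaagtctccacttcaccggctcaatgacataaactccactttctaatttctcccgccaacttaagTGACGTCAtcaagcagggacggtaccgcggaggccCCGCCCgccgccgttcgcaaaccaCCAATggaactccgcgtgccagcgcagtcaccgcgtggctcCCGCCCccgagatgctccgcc
Hexim1, chr11:103116075-103116230, plus strand: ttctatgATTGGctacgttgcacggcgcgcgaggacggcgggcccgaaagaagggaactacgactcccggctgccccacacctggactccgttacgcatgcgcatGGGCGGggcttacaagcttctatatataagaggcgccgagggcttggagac

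In Ccnt2 a CCAAT box on the minus strand and a GC box share a base. Larp7 holds the palindrome TGACGTCA, in which the core on one strand overlaps the core on the other. Of the motifs searched, Ccnt2 and Hexim1 show only CCAAT and GC boxes in the stretches printed. Over the full windows, the cAMP response element core occurred in Larp7, Ell2, Ccnt1 and Aff4, or 4 of 9 genes, and in 7.51% of all windows. A GC box occurred in 8 of 9 genes (35.7% of all windows), a CCAAT box in Ccnt2, Cdk9, Ell2, Hexim1 and Larp7 (5 of 9, 37.4% of all windows), and an ETS site in Ccnt1, Cdk9 and Hexim1 (3 of 9, 16.9%). The E-box occurred in Aff4 (1 of 9, 7.15%), and the TATA box letters TATAAA in 0 of 9 (13.6%). Other spellings of the TATA box were not searched, and the Hexim1 stretch holds tatataag near its end, left unmarked. The shares over all windows were not matched for content of G and C, in which the windows of these genes were rich. Counts are of genes and shares are of windows. Because the motifs were chosen after these windows were read, the counts are descriptions and cannot show enrichment. The genes with the cAMP response element core included 1 that fell and 3 that did not pass. Of the window of Ell only 32 bases lie before every annotated start, so it is not shown; it held GC boxes and none of the other motifs.

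Other genes of the elongation pathway were taken from 5 lists by textbook role. Of 77 genes listed, 74 were tested, and 24 rose and 14 fell (32.4% and 18.9%, against 19.2% and 19.0% of all tested genes). Their median log2 fold change was 0.077, against -0.0052 over all tested genes.

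Other genes of the SEC, the little elongation complex and the DOT1L complex were listed with Kmt2a and its partner gene Men1. Of 13 tested 4 rose and 2 fell (median 0.14), or 30.8% and 15.4%, against 19.2% and 19.0% of all tested genes. The ELL-associated factor gene Eaf1 rose from 3.07 ± 0.18 to 4.06 ± 0.15 log2 CPM (SD, n = 3), a change of 0.99 (SE 0.15, limma adjusted p = 0.00267). Its paralog Eaf2, at about 5 to 29 reads per library, was at 1.35 (SE 0.49, adjusted p = 0.0637; 4 of the 14 alternatives that tested it gave a call). Ice1, the scaffold of the little elongation complex, rose by 0.52 (SE 0.16, adjusted p = 0.0354) and Aff3, a paralog of Aff1 and Aff4, fell (-0.42, SE 0.12, adjusted p = 0.0278). Both calls were lost without panobinostat library 2 (0.51 and -0.33) or 3 (0.45 and -0.45) and without untreated library 2 (0.49 and -0.33) or 3 (0.40 and -0.45). They were also lost with the replicate block (adjusted p = 0.0736 and 0.0671) and with no mean-variance trend (0.0578 and 0.0507). Without each of these 4 libraries the list had 1 rise and 1 fall. The DOT1L partner gene Mllt10 fell (-0.79, SE 0.079, adjusted p = 0.000566), while the SEC reader genes Mllt1 (-0.019) and Mllt3 (-0.14) did not pass. Ell3, the third ELL gene, was below the filter, with an estimated 2 to 13 reads.

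Among other 7SK particle proteins and factors that bind, release or recruit P-TEFb, 5 rose and 3 fell of 19 (median 0.010). These were 26.3% and 15.8%, against 19.2% and 19.0% of all tested genes. The rises became 2 without panobinostat library 3 or untreated library 3. Hexim2, the paralog of Hexim1 that can take its place in the 7SK particle, was at -0.79, 0.21 and 0.02 log2 CPM in treated and 1.85, 2.36 and 1.64 in untreated libraries. This low gene fell (limma log2 fold change -2.14 with an SE of 0.38, adjusted p = 0.00422), on an estimated 3, 8 and 8 reads against 28, 35 and 21. Its change was -1.36 with a pseudocount of 1. The mean of Hexim2 was -0.19 log2 CPM in treated and 1.95 in untreated libraries. It thus passed the filter, a mean log2 of at least 0 over all libraries, only through its untreated values. Ppm1g, a phosphatase that releases P-TEFb from the 7SK particle, rose (0.63, SE 0.097, adjusted p = 0.00256), as did the elongation cofactor gene Htatsf1 (0.35, SE 0.077, adjusted p = 0.00996). Syncrip, an RNA-binding protein gene, fell (-0.34, SE 0.075, adjusted p = 0.0099).

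Among the pausing factors 1 rose and 2 fell of 7 (median -0.061), or 14.3% and 28.6%, against 19.2% and 19.0% of all tested genes. The NELF subunit gene Nelfcd fell (-1.10, SE 0.18, limma adjusted p = 0.00294), as did Polr2m, which encodes GDOWN1 (-0.67, SE 0.080, adjusted p = 0.00105). Of the DSIF subunits, Supt4a rose (0.60, SE 0.14, adjusted p = 0.0126) and Supt5 was at 0.10 (adjusted p = 0.434). The RNA-binding NELF subunit gene Nelfe was at 0.10 (adjusted p = 0.414).

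Of the PAF1 complex and other elongation factors, 6 rose and 2 fell of 17 (median 0.056). The shares were 35.3% and 11.8%, against 19.2% and 19.0% of all tested genes. The PAF1 complex genes Rtf1 (0.87, SE 0.098, limma adjusted p = 0.000831) and Paf1 (0.84, SE 0.096, adjusted p = 0.000896) rose, as did the elongin A gene Eloa (0.67, SE 0.10, adjusted p = 0.00233). Iws1, a partner of the histone chaperone SPT6, fell (-0.85, SE 0.072, adjusted p = 0.000335). Other transcription kinases, their cyclins and CTD phosphatases had 8 rises and 5 falls of 18 (median 0.25). These were 44.4% and 27.8%, against the same 19.2% and 19.0%. The TFIIH kinase gene Cdk7 (0.84, SE 0.11, adjusted p = 0.0012) and Ccnk, the cyclin of CDK12 and CDK13 (0.71, SE 0.12, adjusted p = 0.00391), rose. The cyclin L genes Ccnl1 (-0.998, SE 0.071, adjusted p = 0.000237) and Ccnl2 (-0.58, SE 0.088, adjusted p = 0.00245) fell.

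**Figure D4:**
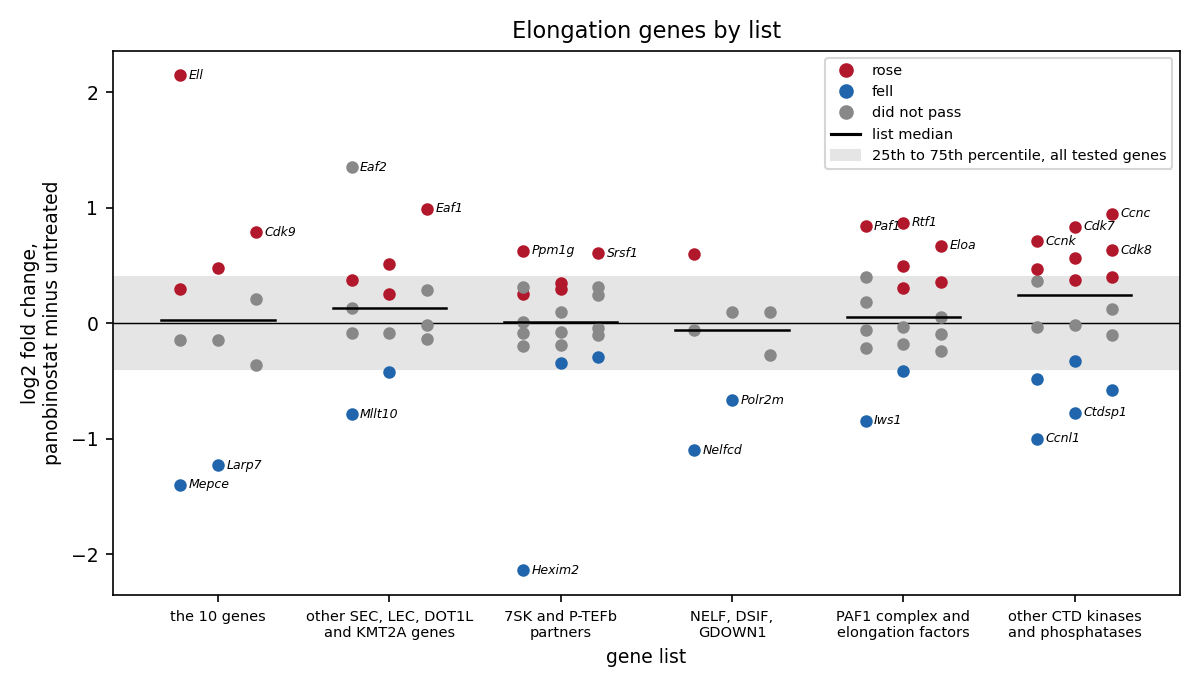
Log2 fold change, panobinostat minus untreated (vertical axis), of each tested gene in the 10 genes and 5 pathway lists (horizontal axis; LEC is the little elongation complex), coloured by limma call at an adjusted p of 0.05, with list medians as lines, the 25th to 75th percentiles of all tested genes in grey and names for genes past 0.6. List medians lie between -0.061 and 0.25, inside the grey band, and Ell and Hexim2 are the highest and lowest points shown. Hexim2 passed the filter on low values only through its untreated libraries.

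The well-expressed genes whose values followed those of Ell most closely over the 6 libraries were Sde2 (Pearson r = 0.9988), Chd4 (0.9986), Fyttd1 (0.9986), Orc4 (0.9984) and Rps18 (0.9984), out of 6265 genes at or above the median level. These are descriptions over 6 libraries that share 1 treatment step and the position of untreated library 1, and carry no test. Their log2 fold changes were smaller than that of Ell, at 1.14, 0.63, 0.93, 0.83 and 0.46.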

How the data were processed

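The authors deposited 1 table of log2 values, 1 row per gene and 1 column per library. The submitters' processing notes name cutadapt 1.9, HISAT2 2.1.0, Subread 1.5.0 with featureCounts, and limma, and the mm10 build; which annotation, strand setting or filters applied is not given in the sources used here. Per the labels' protocols, libraries were made with the QuantSeq 3′ kit from 100 ng of RNA. That values are log2 CPM, quantile normalized between libraries, was inferred: their powers of 2 summed to 994114 to 994182 per library, and sorted values lay within 0.05 of their mean over libraries at 87.6% of ranks. Such scaling hides a shift of all genes one way. Columns were matched to samples by the S number in the titles, and library numbers are those in the column names.

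Rows with a mean log2 of at least 0 (12554 of 13185) were tested with limma 3.58.1 in R 4.3.3 (lmFit, eBayes with trend), two-sided, with Benjamini-Hochberg adjustment over all of them, a threshold of 0.05 and no pseudocount. Confidence intervals are limma's 95% intervals, unadjusted. Reads per CPM were estimated over 200 steps between distinct values; reads without molecular identifiers are not independent RNA copies. Pairs of genes were compared by exact permutation over 20 assignments. The fit was tested on simulated data. The 10 genes and the lists were chosen with earlier results of these data known. Named were the 10 genes, up to 4 called genes of smallest adjusted p per list, 10 preset partner genes and the 5 genes most like Ell; genes within 5000 bases of one of the 10 could be named by position. The result for 1 preset gene is not reported here. Positions came from GENCODE M21 on GRCm38 (mm10), where all 10 symbols matched. Alternatives were 2 filters, 2 scalings, a pseudocount of 1, 2 spread models, library weights, a replicate block and each library left out, 15 fits in all. Tables and figures used Python 3.11.15, pandas 2.3.3 and matplotlib 3.10.9.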

Additional observations from a re-analysis of the deposited data

How the results depend on the processing

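Of 150 log2 fold changes of the 10 genes over 15 alternatives, 137 kept their direction and side of the threshold, 11 lost the call (Ccnt2 and Aff1), 2 gained it (Ccnt1 and Ell2, library weights) and 0 reversed. The rises among the 10 genes became 2 with no trend and were 2 to 4 with 1 library left out. For the SEC-related list, no trend gave 1 rise and 1 fall, the replicate block 2 and 1, and leaving out 1 library 1 to 3 rises and 1 to 2 falls. For the P-TEFb partner list, no trend gave 2 rises and leaving out 1 library 2 to 6. All tested genes had 1587 (without panobinostat library 3) to 2664 rises with 1 library left out. Of 493 values of other named genes, 458 kept direction and side, 27 lost and 5 gained a call, and 3 reversed, all of Mllt1, which did not pass: 0.034 with library weights, 0.062 without panobinostat library 2 and 0.080 without untreated library 2, in a range of -0.084 to 0.080 with 1 library left out. The cause of these changes was not tested, except that a left-out library leaves fewer samples. The Fkbp8 call was also lost with no filter, no trend, robust variance and the replicate block, and that of Isyna1 with no trend. Hexim2 and Eaf2 were below the filter at a mean log2 of 2 and have no value there. The scalings moved the median of all genes to -0.0059 and -0.0039.

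The library numbers pair nothing in the labels. Deviations of same-numbered libraries correlated at -0.044, 0.10 and -0.011, and 2 of 6 libraries correlated best with their own number. With the replicate block 4 of the 10 genes rose and 2 fell, and 2079 of all genes rose and 2069 fell. Depth limits Hexim2, Eaf2 and Ell3, whose lowest libraries held an estimated 3, 5 and 2 reads.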
